A study of Arabidopsis thaliana with 6 samples.

Results

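The plastid genome of Arabidopsis thaliana carries, beside its photosynthesis genes, the genes for much of its own expression machinery. The probe sets of that machinery, together with those of a few other plastid genes, were followed here: genes whose names start with rps, rpl, rpo or ycf, and matK, clpP, accD, ccsA and cemA. On this array each transcript is read by a probe set, several short oligonucleotides summarised into a single signal. The rule, which used names only and no signal, found 33 probe sets for 32 genes among the 22810 of the array. They comprise 11 for the small ribosomal subunit (10 genes, with rps12 read by 2 probe sets), 9 for the large subunit, 4 for RNA polymerase, 4 for ycf genes and 5 for the others. Where the text below speaks of the machinery for short, all 33 are meant, with those of the other genes included. Mitochondrial genes of the same names, listed by 6 probe sets, were left out. Of the 33 probe sets, 7 list both annotated copies of a gene (rps7, the 2 for rps12, rpl2, rpl23, ycf1 and ycf2), so their signals were not assigned to a single copy.

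Plastids transcribe their genes with a bacterial-type RNA polymerase, whose core subunits are the rpo genes, and with a phage-type enzyme encoded in the nucleus. The mRNAs are read by bacterial-type ribosomes built from plastid-encoded and nuclear-encoded proteins around plastid rRNA. Many plastid genes lie in clusters that are transcribed together and then cut and spliced. Most stable plastid mRNAs carry no poly(A) tail, and short tails mark them for degradation. The labels name a one-cycle labelling protocol, which as a rule primes from poly(A), so a plastid signal here may follow tailed or internally primed RNA and not the whole transcript pool.

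The arrays compare 3 samples of an atm mutant with 3 samples of the wild type, accession Col0. ATM is the kinase that starts signalling from DNA double-strand breaks. The labels name the mutant atm, ATM1 and AtATM3 in different fields and give no strain for it, so its allele and background are unsure. All plants were whole plants at growth stage 1.04, grown on agar medium with sucrose under 9 h of light and 15 h of dark at 22°C. The series title speaks of X-ray inducible transcripts, but no irradiation is stated for any sample, and the only comparison made is genotype. No probe set was named for ATM, so the genotype was not checked at its own transcript. Nothing states that replicates were separate cultures, so the p-values may reflect technical spread alone. In whole plants, a change in the share of green cells and a change in plastid RNA per cell cannot be told apart.

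The 6 arrays had median signals of 40 to 41.3 and carry no read depth, so their number limits the precision. Of the leaf markers only Rubisco activase (RCA) was named, 1 of 12, with signals of 4826 to 5520 on the atm mutant arrays and 4133 to 6177 on the wild type arrays. Of the 6 root markers 2 were named, PYK10 and EXPA7, with summed signals of 2966 to 3653 on the atm mutant arrays and 2983 to 3349 on the wild type arrays. Atm mutant replicate 2 and wild type replicate 1 stood apart from the other arrays: the control probe set for 25S rRNA read 2123 and 836 there, and 4106 to 5400 on each of the remaining 4. Values from the 4 arrays without this pair are given beside the class medians and for some of the genes.

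Most of the machinery was well above the dim end of the array. On all 6 arrays 29 of the 33 probe sets exceeded the 40th percentile of their array, which lay at signals of 24.7 to 26. Those for rpoB, the beta subunit of the polymerase, and ycf2, which encodes a large essential plastid protein, were below it on every array. The probe set for rps14 exceeded it on the 3 atm mutant arrays only, and that for rps16 on 5 arrays. Levels of different probe sets cannot be ranked against each other, because each has its own affinity.

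**Figure D1:**
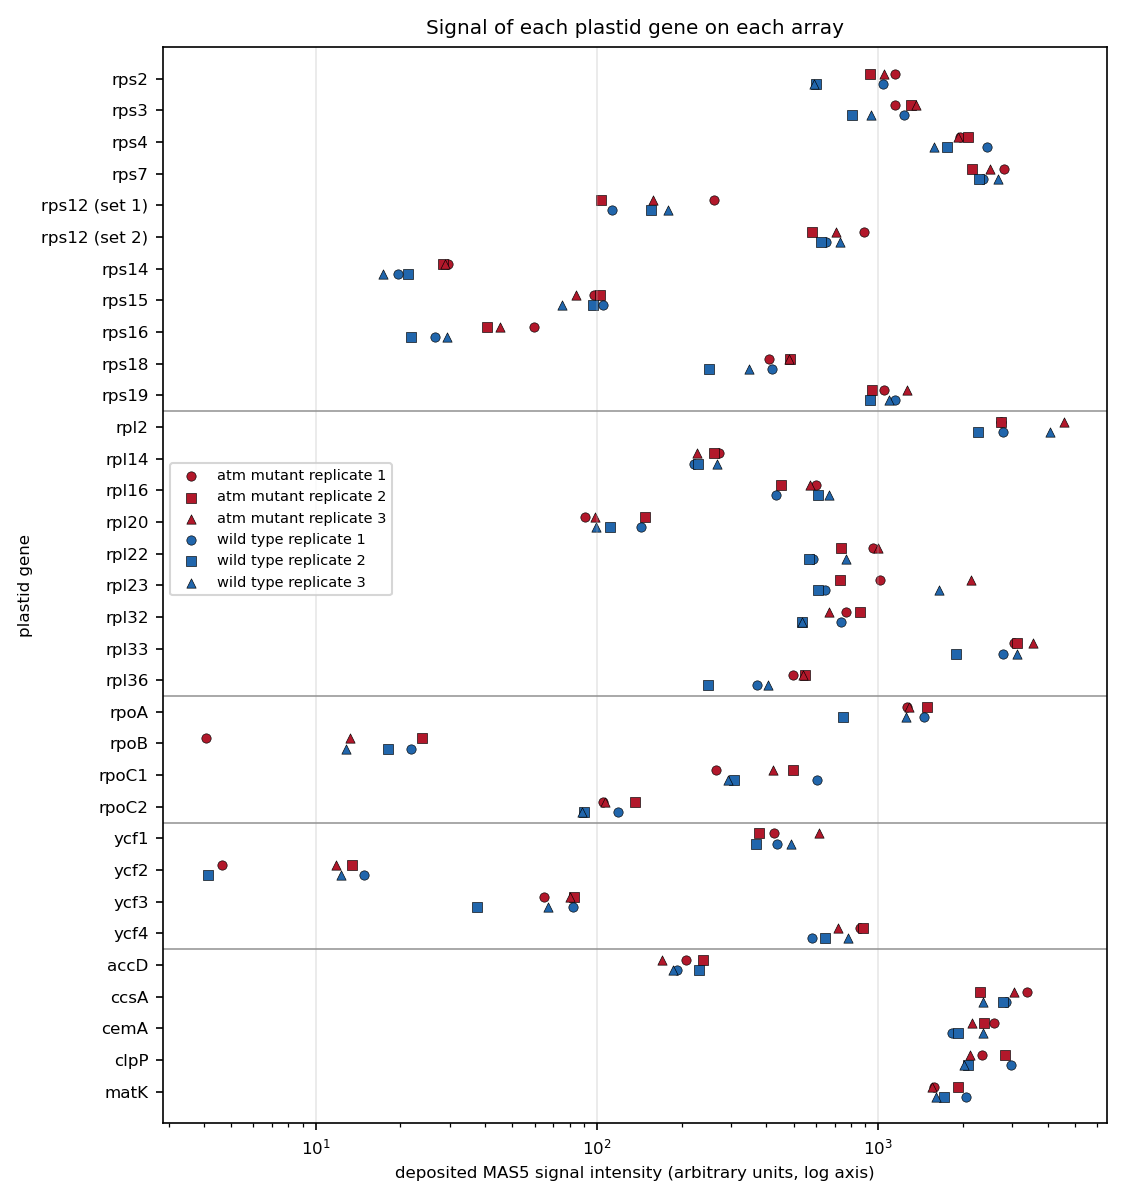
Deposited MAS5 signal (log axis) of every plastid probe set (rows, grouped by class) on the 3 atm mutant arrays (red, upper points of each row) and the 3 wild type arrays (blue, lower points). The groups are separate only for rps14, rps16 and rpl36, and the points for rpoB and ycf2 lie at the dim end, at signals under 24.

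None of the machinery passed the test between genotypes over all 6 arrays, while the mean of most probe sets lay somewhat above the wild type. Fitted with limma over all 13895 probe sets that passed the filter on dim signal, 0 of the 31 members tested had an adjusted p under 0.05, against 0.223% of all probe sets. At an unadjusted p under 0.05 there were 5 of 31 (16.1%), all with the higher mean in the atm mutant, where 1.2% of all probe sets tested were higher at that level. Those 5 were rps2, rps16, rps18, rpl22 and rpl36, all ribosomal proteins. Most of the 31 tested were too, with 11 for the small and 9 for the large subunit. With no filter, 28 of the 33 had a higher mean log2 signal in the atm mutant, against 52.7% of all probe sets, and 26 or 27 did when the arrays were quantile normalised or centred on their medians. When single arrays were left out the count was 22 to 29 of 33, with 22 without wild type replicate 2 and 23 without atm mutant replicate 3. The median over the 33 of the log2 difference (atm mutant minus wild type) was 0.14, and that over all probe sets was 0.02. It was 0.09 without wild type replicate 2, 0.22 without wild type replicate 1, 0.26 without atm mutant replicate 1, 0.24 without atm mutant replicate 2 and 0.23 with the 4 arrays. For single genes the differences ran from -0.66 (rpoB) to 0.90 (rps16).

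Few probe sets separated the groups on every array. The 3 atm mutant values lay above all 3 wild type values for 3 of 33, rps14, rps16 and rpl36, where 4.67% of all probe sets did so. They lay below for 0 of 33, where 4.52% of all probe sets did so.

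**Figure D2:**
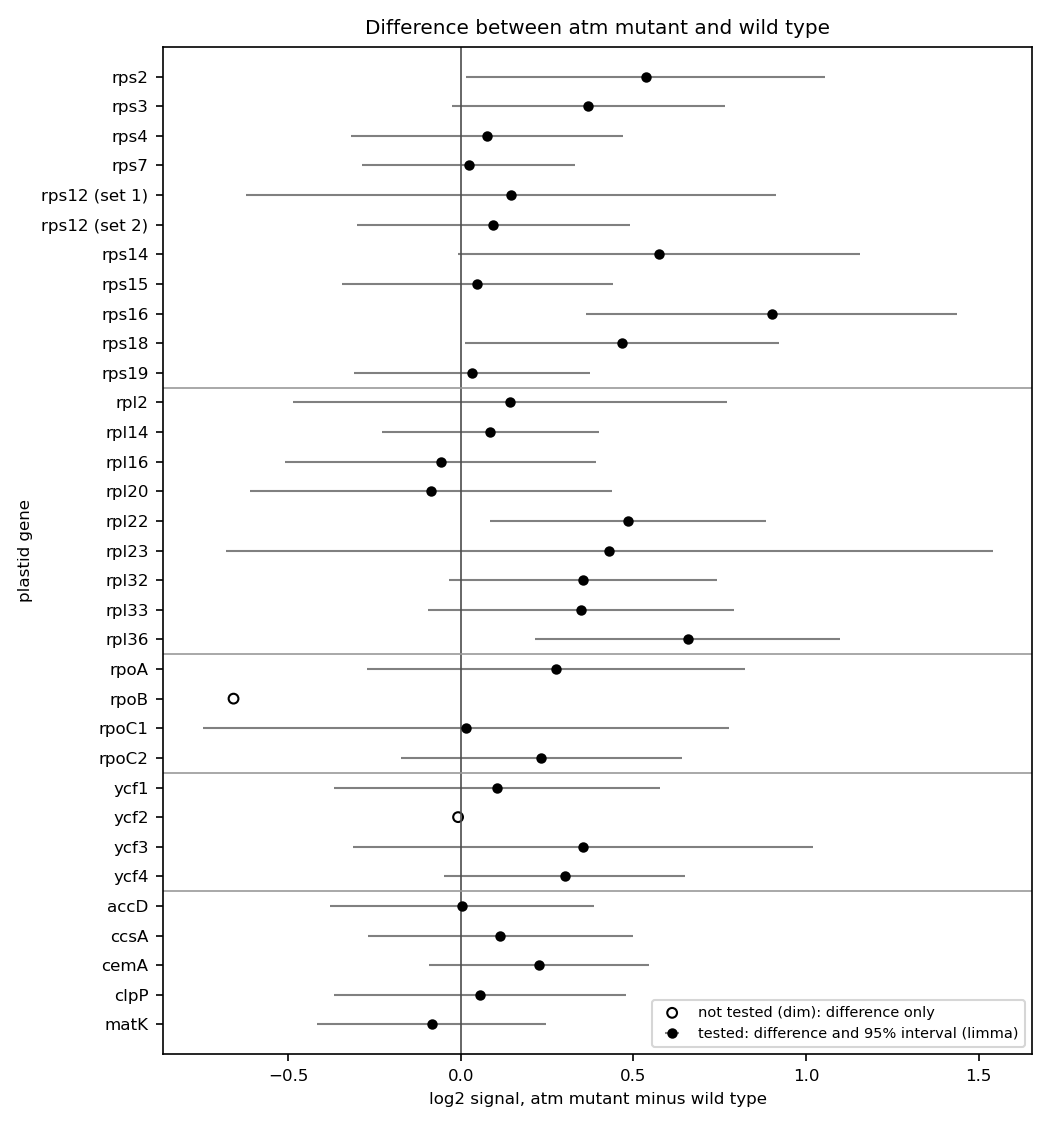
Log2 difference of atm mutant minus wild type for each probe set, with the 95% interval from limma for the 31 tested (filled points) and no interval for the 2 dim ones (open points). Intervals lie above zero for rps2, rps16, rps18, rpl22 and rpl36, without adjustment for multiple tests, and those of the other 26 tested span zero.

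The small ribosomal subunit decodes the mRNA, and its 11 probe sets all had a mean log2 signal above the wild type, by 0.02 to 0.90 with a median of 0.15, which ranged from 0.09 without atm mutant replicate 1 to 0.35 without atm mutant replicate 2 and was 0.29 with the 4 arrays. After quantile normalisation 9 of 11 did, and 8 to 10 did when single arrays were left out. Limma called 0 of 11. The largest difference was in rps16. Its signals were 59.7, 40.8 and 45.3 on atm mutant replicates 1 to 3, against 26.6, 21.8 and 29.2 on wild type replicates 1 to 3. The mutant values were all above the wild type values, at signals close to the dim end. The log2 difference was 0.90 (SE 0.23, limma adjusted p = 0.693), a 1.87-fold higher geometric mean. Over the alternatives the difference ranged from 0.53 to 1.04. The adjusted p was 0.108 at its lowest over those that tested the probe set, which a filter at the 60th percentile left out.

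The rps14 probe set was dimmer still. Its signals were 29.5, 28.3 and 28.7 in the atm mutant, against 19.7, 21.2 and 17.4 in the wild type. The groups did not overlap, but the probe set entered the test through the mutant arrays alone, which all but fixed its direction. Its log2 difference was 0.57 (SE 0.25, limma adjusted p = 1.00), and over the alternatives the difference ranged from 0.28 to 0.64.

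The rps2 and rps18 signals were bright, and in both the groups overlapped through wild type replicate 1. For rps2 they were 1148, 938 and 1048 in the atm mutant, against 1039, 602 and 593 in the wild type. Wild type replicate 1 thus lay within the mutant values and the other 2 wild type arrays far below. The log2 difference was 0.54 (SE 0.22, limma adjusted p = 1.00). For rps18 the signals were 409, 486 and 481 in the atm mutant, against 418, 250.0 and 346 in the wild type, where replicate 2 was the lowest. The log2 difference of rps18 was 0.47 (SE 0.20, limma adjusted p = 1.00). It was 0.26 when wild type replicate 2 was left out.

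The rps3 signals were 1149, 1304 and 1359 in the atm mutant, against 1236, 809 and 944 in the wild type. They overlapped through wild type replicate 1 as well, with a log2 difference of 0.37 (SE 0.17) that was 0.23 without wild type replicate 2. The other small-subunit genes differed by at most 0.15. For rps7 the signals were 2792, 2159.6 and 2489 in the atm mutant, against 2357, 2284 and 2662 in the wild type. Its log2 difference of 0.02 had a 95% interval of -0.29 to 0.33. The rps4 signals ran from 1928 to 2085 in the atm mutant and from 1574 to 2441 in the wild type, with a log2 difference of 0.07 (95% interval -0.32 to 0.47) that was 0.23 with the 4 arrays. Those of rps15 ran from 84.1 to 102 in the atm mutant and from 75 to 105 in the wild type, with an interval of -0.34 to 0.44. Those of rps19 ran from 950.4 to 1262 in the atm mutant and from 934 to 1146 in the wild type, with an interval of -0.31 to 0.37. In each of these genes the groups overlapped.

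The rps12 mRNA is joined from separately transcribed pieces by trans-splicing, and its 2 probe sets can be compared array by array. The first had 261, 103 and 159 in the atm mutant, against 114, 155 and 179 in the wild type. The second had 891, 580.2 and 709 in the atm mutant, against 653, 628 and 734 in the wild type. Both were highest on atm mutant replicate 1 and lowest on atm mutant replicate 2. Their log2 differences were 0.15 (SE 0.33) and 0.09 (SE 0.17).

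The large ribosomal subunit forms the peptide bonds. Of its 9 probe sets 7 had the higher mean in the atm mutant and 2 the lower, with differences from -0.09 to 0.66 and a median of 0.35. The median was 0.13 without wild type replicate 2, 0.16 without atm mutant replicate 3, 0.22 without wild type replicate 1, 0.38 without wild type replicate 3 and 0.42 with the 4 arrays. Limma called 0 of 9. The probe set for rpl36, one of the smallest ribosomal proteins, had 496, 547 and 540.1 in the atm mutant, against 369.9, 249 and 407 in the wild type. No wild type value reached the mutant range. The log2 difference was 0.66 (SE 0.19, limma adjusted p = 0.936), a 1.58-fold higher geometric mean, and 0.44 without wild type replicate 2. Over the alternatives the adjusted p was 0.0774 at its lowest.

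The rpl22 signals were 958, 736 and 994 in the atm mutant, against 587, 569 and 767 in the wild type. Atm mutant replicate 2 was the lowest in its group and wild type replicate 3 the highest in its own, and only there did the groups overlap. The log2 difference was 0.48 (SE 0.17, limma adjusted p = 1.00) and stayed between 0.40 and 0.62 over the alternatives. At the other end stood rpl20, with 90.4, 148 and 98.7 in the atm mutant, against 144, 112 and 98.9 in the wild type. Its log2 difference was -0.09, with a 95% interval of -0.61 to 0.44. The groups overlapped in the remaining genes as well. The rpl32 signals ran from 668 to 860.3 in the atm mutant and from 535 to 735 in the wild type, with a log2 difference of 0.35 (SE 0.17). Those of rpl33 ran from 3044 to 3564 in the atm mutant and from 1889 to 3119 in the wild type, with a log2 difference of 0.35 (SE 0.19). Both genes had their lowest signal on wild type replicate 2, though for rpl32 wild type replicate 3 was nearly equal (535 and 537). Without wild type replicate 2 the log2 differences were 0.28 for rpl32 and 0.13 for rpl33. The rpl14 signals ran from 227 to 271 in the atm mutant and from 222 to 266 in the wild type, with a log2 difference of 0.08. Those of rpl16 ran from 452 to 602 in the atm mutant and from 432 to 666 in the wild type, with a log2 difference of -0.06.

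**Figure D3:**
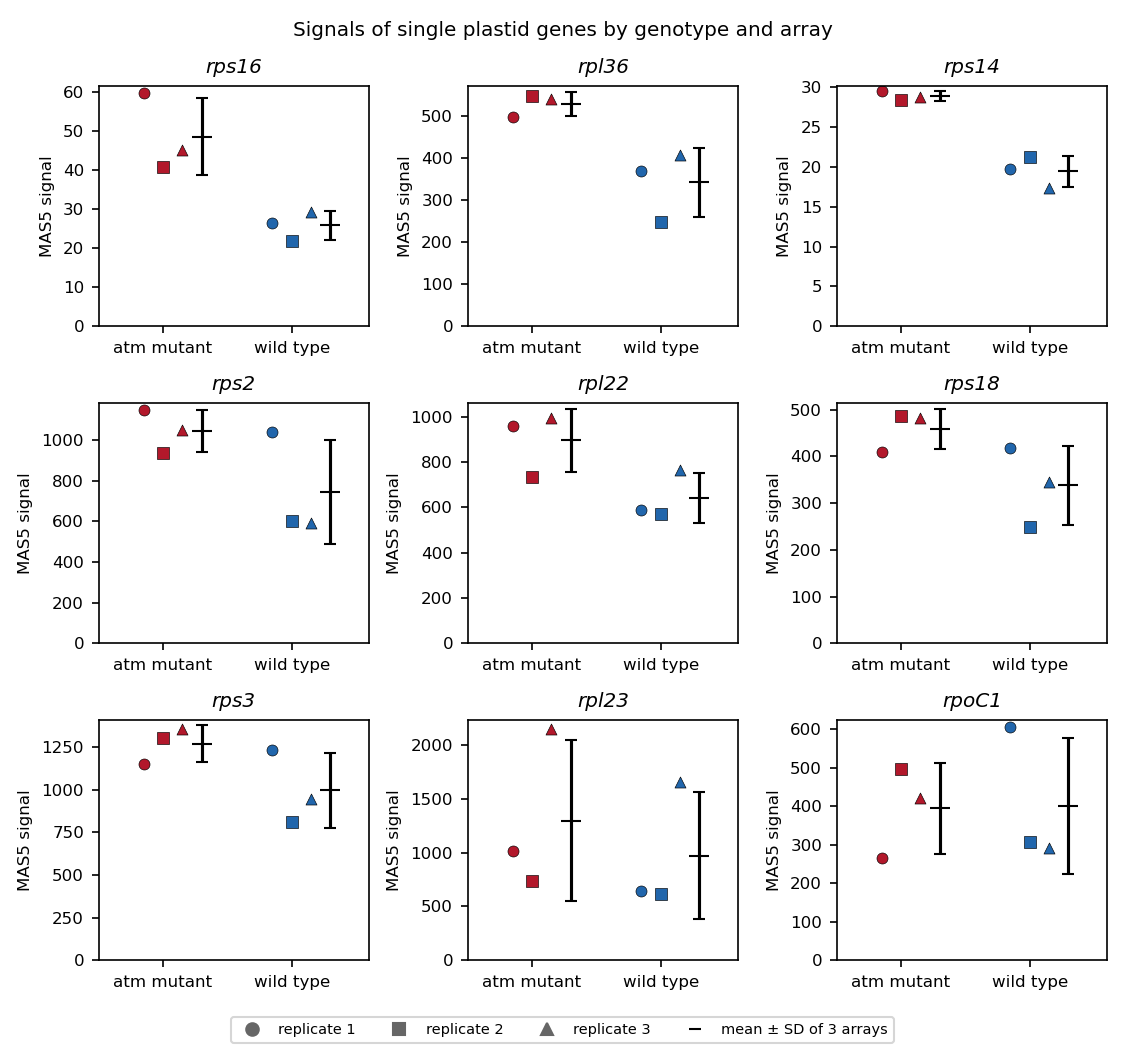
Signals (axes from 0) of 9 plastid genes on the atm mutant arrays (red) and the wild type arrays (blue), with symbols for replicates 1 to 3 and the mean ± SD of 3 arrays in black. The groups are separate for rps16, rpl36 and rps14, replicate 3 is the highest of both genotypes for rpl23, and wild type replicate 1 lies at or above the mutant values for rpoC1.

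With the 4 arrays other than atm mutant replicate 2 and wild type replicate 1, limma called 3 of the 31 tested, all higher in the atm mutant, against 0.547% of all probe sets called higher in that fit. They were rps2 (log2 difference 0.88, adjusted p = 0.000207), rps3 (0.52, adjusted p = 0.0337) and rpl22 (0.56, adjusted p = 0.0433). Each genotype then has 2 arrays, and over all 6 arrays each of these genes had an adjusted p of 1.00. The pair left out had been picked from the signals of these same arrays. It includes wild type replicate 1, through which the groups overlapped for rps2 and rps3 over all 6 arrays. The wild type group then consists of replicates 2 and 3. Replicate 2 was the lowest of the 6 arrays for 14 of the 33 probe sets. The 3 calls are therefore not independent of the choice of arrays. With all 6 arrays and a term for that pair, and likewise with array weights, limma called 0 of 31. The cause of the difference between these fits was not tested.

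The 4 rpo genes encode the core of the plastid-encoded polymerase, and limma called 0 of the 3 tested. Their median difference of 0.12 ranged from -0.07 without wild type replicate 2 to 0.36 without wild type replicate 1 and was 0.20 with the 4 arrays. For rpoC1 they were 266, 498 and 422 in the atm mutant, against 605, 307 and 291 in the wild type, so that the highest value was on wild type replicate 1. The log2 difference was 0.01 (SE 0.33), and 0.16 with the 4 arrays. For rpoA, the alpha subunit, they were 1265, 1489 and 1288 in the atm mutant, against 1452, 751 and 1256 in the wild type. Only wild type replicate 2 stood apart, and the log2 difference of 0.28 (SE 0.24) was -0.01 without it and 0.39 with the 4 arrays.

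For rpoC2 the signals were 106, 137 and 107 in the atm mutant, against 119, 90.1 and 88.7 in the wild type, with a log2 difference of 0.23 (SE 0.18). The rpoB probe set had 4.08, 23.9 and 13.3 in the atm mutant, against 21.9, 18.1 and 12.9 in the wild type. It was too dim to be tested. Its difference of -0.66 had atm mutant replicate 1 as the lowest value, and ranged from -1.23 to 0.05 over the alternatives, with -1.05 for the 4 arrays. All 4 of 4 were highest on replicate 2 within the atm mutant and on replicate 1 within the wild type, the pair of arrays that stood apart.

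That pattern was shared by 13 of the 33, against 19.4% of all probe sets, and included clpP, matK, rps4, rps15, rps18, rpl20, rpl32, ycf2 and ycf3 beside the polymerase genes. Across the 33, the deviations of the 2 arrays from their genotype means correlated at a Pearson r of 0.66, close to the 0.65 over all probe sets tested. These are descriptions across genes that share the same 6 arrays, and genes are not independent replicates.

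Wild type replicate 2 was the lowest of the 6 arrays for 14 of the 33, against 15.7% of all probe sets. It was the highest for 0 of the 33, against 17.9% of all probe sets. The summed signal of the 33 was 32888, 31541 and 35246 on the atm mutant arrays, against 31416, 25555 and 31363 on the wild type arrays. The lowest was therefore wild type replicate 2. The 44 plastid photosynthesis probe sets gave sums of 61181 to 63416 on the atm mutant arrays, against 61753, 49770.4 and 61034 on wild type replicates 1 to 3, so that the same array was low there too. RCA, a nuclear gene, was also lowest on it, with 4133. Its ratio of 3' to 5' GAPDH control signal was 1.08, against 1.40 to 1.56 on the atm mutant arrays and 1.41 and 1.10 on the other wild type arrays. The ubiquitin ratio was 3.15 there, against 2.33 to 2.91 on the atm mutant arrays and 2.72 and 3.25 on the other wild type arrays. The actin ratio was 8.35 there, against 9.10 to 9.94 on the atm mutant arrays and 11.1 and 9.72 on the other wild type arrays. GAPDH and actin were thus lowest on wild type replicate 2, and ubiquitin was not. The part of RNA quality or of leaf content in the plastid differences was not tested.

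**Figure D4:**
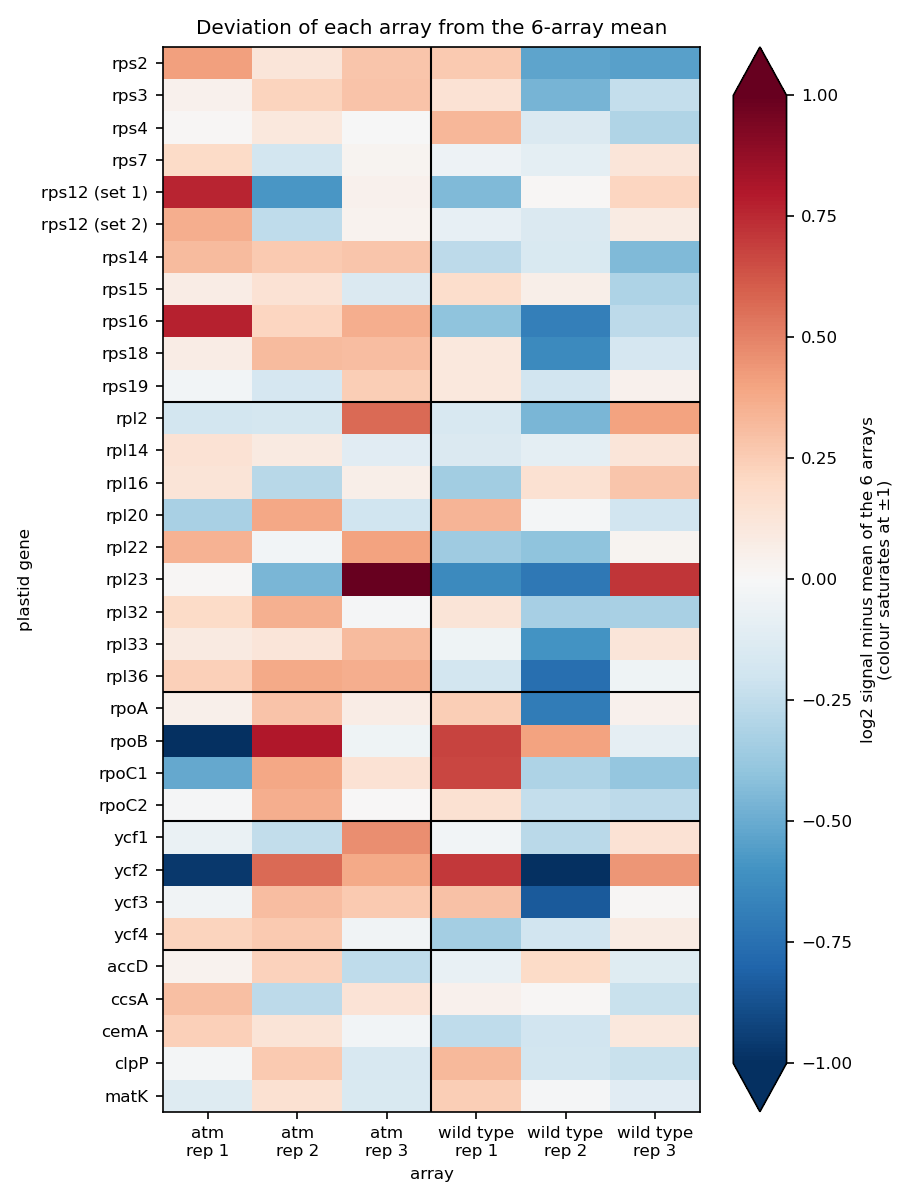
Log2 signal of each plastid probe set (rows) on each array (columns, atm mutant to the left of the line) minus its mean over the 6 arrays, in red above and blue below the mean. Blue prevails on wild type replicate 2, the rpo rows are red on both atm mutant replicate 2 and wild type replicate 1, and rpl2 and rpl23 are red on both replicates 3.

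The ycf genes were named as open reading frames before their roles were known. Of the 4, 3 had the higher mean in the atm mutant, limma called 0 of the 3 tested, and the median difference of 0.20 ranged from 0.01 without wild type replicate 2 to 0.36 without atm mutant replicate 1 and was 0.21 with the 4 arrays. For ycf3, a photosystem I assembly factor, the signals were 65, 82.8 and 79.9 in the atm mutant, against 82, 37.4 and 67.2 in the wild type. The groups overlapped, and the log2 difference of 0.35 (SE 0.29) was 0.02 without wild type replicate 2. For ycf4, another photosystem I assembly factor, they were 860.0, 886 and 719 in the atm mutant, against 582, 647 and 779 in the wild type.

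The log2 difference of ycf4 was 0.30 (SE 0.15), with an overlap between atm mutant replicate 3 and wild type replicate 3. For ycf1, which encodes a very large essential protein, the signals ran from 376 to 614 in the atm mutant and from 368 to 491 in the wild type, with a log2 difference of 0.11 (SE 0.20). The dim ycf2 probe set had 4.66, 13.5 and 11.8 in the atm mutant, against 14.8, 4.13 and 12.3 in the wild type, which gives no usable difference.

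Of the remaining genes, matK, clpP, accD and ccsA have roles in splicing, protein turnover, lipid synthesis and cytochrome assembly, and cemA is described below. Limma called 0 of 5, and their differences ran from -0.09 to 0.23 with a median of 0.05, which ranged from -0.06 without atm mutant replicate 2 to 0.15 without wild type replicate 1 and was 0.11 with the 4 arrays. The largest was in cemA, which encodes a protein of the plastid envelope. Its signals were 2576, 2387 and 2147 in the atm mutant, against 1829, 1915 and 2354 in the wild type. One wild type value lay among those of the mutant, and the log2 difference was 0.23 (SE 0.14, limma adjusted p = 1.00).

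The lowest difference of this class was in matK, the maturase that assists splicing of plastid introns. It had 1577, 1918 and 1557 in the atm mutant, against 2047, 1716 and 1598 in the wild type. The log2 difference was -0.09, with a 95% interval of -0.42 to 0.25. For clpP, the plastid-encoded proteolytic subunit of the Clp protease, the signals were 2331, 2821 and 2113 in the atm mutant, against 2954, 2079.9 and 2019.6 in the wild type.

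The clpP difference was 0.05 (SE 0.18), and the highest value of each genotype was on the pair of arrays named above. For accD, the plastid-encoded subunit of the acetyl-CoA carboxylase that feeds fatty acid synthesis, they were 207, 238 and 169.7 in the atm mutant, against 193, 231 and 187 in the wild type. The geometric means of accD were equal to 3 digits, at a 1.00-fold ratio, with a 95% interval of -0.38 to 0.38 on the log2 scale, and the log2 difference with the 4 arrays was -0.15. For ccsA, needed to attach heme to c-type cytochromes, they were 3392, 2293 and 3029 in the atm mutant, against 2839, 2771 and 2362 in the wild type. The ccsA difference was 0.11 (SE 0.17), and 0.32 with the 4 arrays.

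The differences are given here in the order of the genes on the plastid genome. In the large ribosomal cluster, read in order from rpl23 towards rpoA, the log2 differences were 0.43 for rpl23, 0.14 for rpl2, 0.03 for rps19, 0.48 for rpl22 and 0.37 for rps3. They were -0.06 for rpl16, 0.08 for rpl14, 0.66 for rpl36 and 0.28 for rpoA. Whether neighbours differ from each other was not tested, and the 95% intervals of rps19 (-0.31 to 0.37) and its neighbour rpl22 (0.09 to 0.88) overlap. Elsewhere rps2 and the adjacent rpoC2 had 0.54 and 0.23. In another stretch rpl33 and rps18 had 0.35 and 0.47, while rpl20, which follows them, had -0.09. The rps12 values are not placed here, because which of its separately transcribed pieces each probe set reads is not known. The adjacent ycf4 and cemA had 0.30 and 0.23, and with the 4 arrays 0.15 each.

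At the start of the cluster, rpl23 and rpl2 were highest on replicate 3 of each genotype. The rpl23 signals were 1014, 734 and 2139.9 in the atm mutant, against 645, 612 and 1649.6 in the wild type. That replicate was far above the others in both genotypes, and rpl23 had the largest standard error of the 31 tested (log2 difference 0.43, SE 0.48). The rpl2 signals were 2725, 2743 and 4579 in the atm mutant, against 2769, 2256 and 4084 in the wild type, with the same array highest in each.

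Both probe sets read 2 annotated copies. Replicate 3 was the highest of both genotypes for 5 of the 33, rpl2, rpl22, rpl23, rpl33 and ycf1, against 9.23% of all probe sets. In a fit with replicate number as block, the standard error of rpl23 was 0.15 and that of rpl2 was 0.14, and neither was called.

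**Figure D5:**
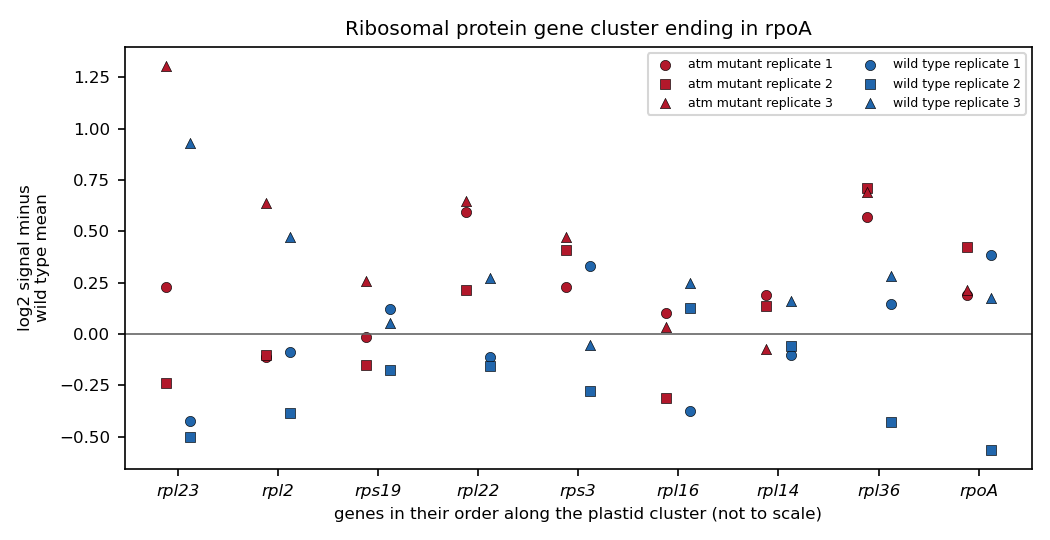
Log2 signal minus the wild type mean for 9 genes in their order along the large ribosomal protein cluster, for the atm mutant arrays (red, left of each gene) and the wild type arrays (blue, right), with symbols for replicates 1 to 3. The triangles of both genotypes stand far above the other arrays for rpl23 and rpl2, and the mutant values are all above the wild type values for rpl36 only.

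The nuclear partners of these genes could be followed only in part. Of 40 nuclear genes for plastid ribosomal proteins, 10 were named and tested, limma called 0 higher and 0 lower, and 6 had the higher and 4 the lower mean in the atm mutant. Their median log2 difference was 0.02, with a range of -0.11 to 0.22. PRPL29 had the smallest p, with a signal of 1559 ± 184 in the atm mutant and 1344 ± 206 in the wild type (SD, n = 3 each, log2 difference 0.22, limma adjusted p = 1.00). The next were PRPS6 at 0.09 and PSRP1 at -0.11. For the plastid-encoded ribosomal proteins the medians were 0.15 (small subunit) and 0.35 (large subunit), and the difference from the nuclear ones was not tested.

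Of 23 nuclear genes whose products work with clpP, accD, ccsA, ycf3 or ycf4, 8 were named and tested, limma called 0 higher and 0 lower, and the median was -0.04. The CLPT1 signal, for an accessory subunit of the Clp core, was 236 ± 47.2 in the atm mutant and 293 ± 35 in the wild type (SD, n = 3 each, log2 difference -0.33, limma adjusted p = 1.00). CLPT2 differed by 0.18 and CCDA, a thylakoid protein of cytochrome assembly, by -0.11 (limma unadjusted p = 0.368 for CCDA). All 3 atm mutant values of CCDA lay below the wild type values, where 4.52% of all probe sets did so. In the other nuclear partners tested the groups overlapped. Of 26 nuclear genes of plastid transcription, sigma factors included, 1 was named, RPOTmp, a phage-type polymerase, and it was below the 40th percentile on every array.

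The other plastid-encoded genes, 44 probe sets for photosynthesis, had a median log2 difference of 0.13, and 29 of 44 had the higher mean in the atm mutant. The machinery had 0.14 and 28 of 33. Without wild type replicate 2 these were 0.00 and 22 of 44 for photosynthesis genes, and 0.09 and 22 of 33 for the machinery. Whether the 2 sets differ was not tested.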

How the data were processed

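The authors deposited linear signal intensities, 1 value for each probe set on each array. The submitters' processing notes name MAS5 and GCOS; scaling target, detection calls and filters are not given in the sources used here. From the values, the mean trimmed by 2% at each end was 100.0 on each array. The intensities as deposited were converted to log2 and not rescaled. Testing was limited to probe sets above the 40th percentile on 3 or more of the 6 arrays, without the 64 Affymetrix controls, which left 13895. The genotype difference came from limma 3.58.1 (R 4.3.3; eBayes with an intensity trend and no block), with two-sided p-values adjusted by Benjamini-Hochberg over all of these and a threshold of 0.05. The procedure was tested on simulated data. An exact permutation test of 3 against 3 cannot go below p = 0.1.

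Names come from the platform annotation, updated by gene ID through the RefSeq table of TAIR10.1, which was used for names and neighbours only. Of 22746 probe sets, 13513 had 1 gene, 503 several and 8730 were unnamed here. A probe set listing several genes was named only where all were copies of 1 plastid gene. Values in every array were given for members with unadjusted p under 0.05 and for the highest and lowest difference of each class. For the others the range of signals in each genotype was given. The genes rps3, rps12, rps14, rpl2, rpl23, rpoC1, rpoC2, ycf4, accD, ccsA and clpP were added after their values were seen. Members, lists and alternatives were chosen with earlier results of these data known.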

Additional observations from a re-analysis of the deposited data

How the results depend on the processing

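Over 18 alternatives limma called 0 of the plastid machinery probe sets except with the 4 arrays left without wild type replicate 1 and atm mutant replicate 2, which gave 3 calls (rps2, rps3 and rpl22). Leaving out single arrays gave 0 throughout. The count over all probe sets, 31 with 6 arrays, was 73 with array weights, 108 with a term for the pair and 233 with the 4 arrays; it was 13 to 36 without single arrays, with 13 both without wild type replicate 2 and without wild type replicate 3. The cause was not tested. The median log2 difference of the 33 was above zero throughout, at 0.11 to 0.23 over the other alternatives and from 0.0889 (without wild type replicate 2) to 0.265 (without atm mutant replicate 1) when single arrays were left out. Over the 33, the deviations from the genotype means of arrays with the same replicate number had Pearson correlations of -0.54, -0.10 and 0.57. Deviations within a genotype sum to 0, and the arrays that stood apart carry different replicate numbers, so these values cannot decide whether samples were paired. The labels give no pairing, and the main fit took none. A replicate block gave 11 calls over the whole array, 0 of them in the machinery. Each replicate number occurs once in each genotype, so the block could not change the differences or their median of 0.14. Of the 556 values of single genes over the alternatives, 40 changed sign, none of them for a called gene. The other filters, the eBayes variants, the replicate block and the term for the pair cannot change these differences or their median. Their values are among the 556, so the share that kept its sign is no measure of stability.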
